A study of Mus musculus with 6 samples.

Results

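The subject is a group of 10 mouse genes, chosen by name, that encode activin subunits (Inhba, Inhbb, Inhbc and Inhbe), the activin antagonist follistatin (Fst), the bone morphogenetic proteins Bmp2, Bmp4 and Bmp6, and the growth and differentiation factors Gdf2 and Gdf15. They are 10 of the 56884 mouse genes in the count table, and all 10 passed the filter of a total of at least 10 counts over the 6 libraries. Cells of the human hepatocellular carcinoma (HCC) line QGY-7703 had been placed in the livers of male athymic BALB/c (nu/nu) mice, 6 weeks old per the labels. Liver RNA was sequenced, and the study took the mouse counts as the tumor microenvironment (TME). The mouse share of all gene counts was 0.778% to 1.93% in siControl and 97.9% to 99.0% in siAATF. The mouse counts of the 2 groups thus come from tissue of unlike composition, and no difference below is one within a single compartment. All mice carried the human tumor, lacked a thymus and received an AAV8 vector by tail vein 1 week after implantation, with a control siRNA in the siControl group (labelled WT) and an siRNA against mouse Aatf in the siAATF group (labelled KD). They were followed for 3 more weeks, and 3 libraries per group were deposited. The TBG promoter of the vector is active in hepatocytes and not in the stromal cells of the liver. The labels number the replicates 1 to 3 but do not name the animals, and the p-values measure the spread between these libraries.

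Activins are dimers of beta subunits. They bind type II and then type I receptor kinases, which act through SMAD2 and SMAD3, and follistatin wraps around activin and keeps it from its receptors. BMPs use an overlapping set of receptors and act through SMAD1, SMAD5 and SMAD9 on genes such as Id1 and, in hepatocytes, on Hamp, the gene of the iron hormone hepcidin. In the healthy liver, Inhbc and Inhbe are expressed by hepatocytes, Bmp2 and Bmp6 mainly by sinusoidal endothelial cells, Gdf2 (BMP9) by stellate cells and Bmp4 by mesenchymal cells, whereas Inhba, Inhbb, Fst and the stress-induced Gdf15 can come from hepatocytes or from other cells.

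Total mouse counts were 213022 to 913584 in the siControl libraries and 11835898 to 42563694 in the siAATF libraries, which was 0.778% to 1.93% and 97.9% to 99.0% of all gene counts, human and mouse. Levels are given as counts per 1000000 mouse counts (CPM) after scaling by the trimmed mean of M values (TMM). For a gene at 0 the counting error alone allows 3 counts in a library. On this scale that limit was 1.67 to 7.24 CPM for the siControl libraries, and for those of siAATF it was 0.103 to 0.604 CPM. Aatf, the target, was at 9.62, 2.41 and 12.8 CPM in siControl (replicates 1 to 3) and 13.2, 21.96 and 18.8 CPM in siAATF replicates 1 to 3, a log2 fold change of 0.93 (SE 0.47; edgeR's quasi-likelihood test, Benjamini-Hochberg adjusted p = 0.152) that reversed to -0.91 when libraries were scaled by the mouse total alone (edgeR, Benjamini-Hochberg adjusted p = 0.176). With all gene counts, human and mouse, as the scale it was 5.04 (edgeR, Benjamini-Hochberg adjusted p = 3.77e-10). These scalings move all genes nearly alike, and relative to the median of all genes Aatf lay at 0.42, 0.39 and 0.38 (TMM, mouse total and all gene counts). A reduction of its RNA in the libraries labelled siAATF passed the test under none of the 3 scalings, and every direction below refers to the labels. The study also followed the silencing by real-time qPCR and western blotting, which are not analysed here. The summed level of 12 hepatocyte markers was 7895 to 18679 CPM (siControl) and 55206 to 169541 CPM (siAATF), with 11 of the 12 higher, Alb (albumin) among them at 1057 to 2471 against 12481 to 42266 CPM. All 10 activated fibroblast markers were lower (8450 to 12169 against 68.3 to 166 CPM summed), as were 6 of 8 general endothelial markers (373 to 552 against 48.5 to 172 CPM), 5 of 9 macrophage markers (661 to 2868 against 140 to 213 CPM) and 4 of 5 neutrophil markers (57.7 to 1752 against 1.81 to 127 CPM). The other 4 macrophage markers had positive log2 fold changes that did not pass, and of these Clec4f (19.96 ± 21.6 and 61.3 ± 13.8 CPM) and Timd4 (0.824 ± 0.836 and 4.19 ± 1.53 CPM; SD, n = 3 each), both of resident Kupffer cells, did not overlap between the groups. For Timd4 this rests on 1, 0 and 3 counts in siControl. The limit of 7.24 CPM for siControl replicate 2 lies above its siAATF values of 2.42 to 5.10 CPM, so that its lack of overlap is not established. For Clec4f the margin was narrow, with 44.1 CPM in siControl replicate 1 and 45.3 CPM in siAATF replicate 2. Of 4 cholangiocyte markers tested 2 were lower (4.83 to 25.7 against 4.03 to 9.97 CPM). Sinusoidal endothelial markers (2 of 6 higher and 2 lower, 163 to 294 against 98.0 to 229 CPM) and stellate cell markers (1 of 9 higher and 2 lower, 350 to 367 against 260 to 395 CPM) had overlapping sums. No marker of these lists was at 0 in all libraries of a group. Col1a1, which defines the fibroblast list, went from 3405 ± 691 to 11.01 ± 2.91 CPM (SD, n = 3 each), and the endothelial Pecam1 from 102 ± 23.6 to 9.46 ± 8.32 CPM (SD, n = 3 each).

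Promoter sequences are shown for the 3 genes whose RNA differed between the groups. RefSeq windows of 300 bases, 250 before and 50 after a start site, were at hand for 8 of the 10 genes. Each window printed here was found once on its chromosome of GRCm39, and the coordinates are those of that match. Inhbc and Inhbe lie next to each other on chromosome 10 and on the same strand, with 1910 bases between the deposited gene bodies. Capitals mark matches to short motifs, searched on both strands. The composite element of C/EBP and ATF factors, found in stress-responsive promoters, was searched as TGATGCAA. The GC box was searched as GGGCGG. The TATA box was searched as TATAAA, and the remaining motif was CCAAT. No match overlapped another.
Inhbc, chr10:127206368-127206667, minus strand: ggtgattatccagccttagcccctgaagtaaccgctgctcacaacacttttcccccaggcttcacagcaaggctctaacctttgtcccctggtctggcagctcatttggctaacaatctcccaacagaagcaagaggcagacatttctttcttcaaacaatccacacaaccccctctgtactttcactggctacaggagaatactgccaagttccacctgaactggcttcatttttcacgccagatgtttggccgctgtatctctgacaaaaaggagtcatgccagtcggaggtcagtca
Inhbe, chr10:127187668-127187967, minus strand: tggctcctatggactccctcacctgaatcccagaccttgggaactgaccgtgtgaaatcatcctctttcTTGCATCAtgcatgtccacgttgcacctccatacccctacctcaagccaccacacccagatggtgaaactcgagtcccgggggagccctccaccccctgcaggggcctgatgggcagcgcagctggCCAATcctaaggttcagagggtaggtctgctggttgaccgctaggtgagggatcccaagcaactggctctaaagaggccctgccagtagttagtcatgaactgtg
Inhbb, chr1:119349929-119350228, minus strand: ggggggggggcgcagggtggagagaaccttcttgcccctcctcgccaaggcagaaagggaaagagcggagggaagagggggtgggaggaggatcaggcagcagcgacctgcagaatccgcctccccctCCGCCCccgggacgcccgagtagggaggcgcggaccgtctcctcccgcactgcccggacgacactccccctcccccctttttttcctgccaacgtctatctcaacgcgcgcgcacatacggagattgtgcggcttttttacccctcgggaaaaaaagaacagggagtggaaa
The Inhbe window held TGATGCAA on the opposite strand, 181 bases before the RefSeq start, and CCAAT 55 bases before it. Of 32851 mouse windows of this length, 0.895% held TGATGCAA, 13.6% TATAAA, 35.7% GGGCGG and 37.4% CCAAT. The Inhbb window held a GC box on the opposite strand, 122 bases before the start, and the Inhbc window held none of these letters. With 23 CpG and 64.3% GC, the Inhbb window was richer in CpG than those of Inhbc (4 CpG, 49.7% GC) and Inhbe (6 CpG, 57.3% GC), against medians of 7 CpG and 52.7% GC over all windows. The RefSeq start of Inhbe lies 2563 bases inside the deposited gene body, and that of Inhbc at -117, before the gene body. A match is a description of these letters and not evidence of a bound site.

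Inhbc and Inhbe, the beta subunit genes of hepatocytes, were both higher in the libraries labelled siAATF. Inhbc (ENSMUSG00000025405, chromosome 10 of GRCm39, 127192191 to 127206300, minus strand) encodes the subunit of activin C. It had 21, 1 and 7 counts (siControl, replicates 1 to 3) and 3898, 551 and 2250 counts (siAATF, likewise), which is 16.8, 2.41 and 3.90 CPM against 134, 111 and 125 CPM. All siAATF libraries lay close together and far above the siControl libraries, of which replicate 1 was the highest. The means were 7.72 ± 7.94 and 123 ± 11.7 CPM (SD, n = 3 each), and the fitted difference was 14.7-fold, higher in siAATF (log2 fold change 3.88, SE 0.58; edgeR's quasi-likelihood test, Benjamini-Hochberg adjusted p = 0.000346). Without siControl replicate 1, which also had the largest hepatocyte marker sum of its group (18679 CPM), the log2 fold change was 5.13. Inhbe (ENSMUSG00000047492, chromosome 10 of GRCm39, 127184726 to 127190280, minus strand) encodes the subunit of activin E, a hepatokine that acts on adipose tissue. Its counts were 30, 2 and 17 (siControl) and 2443, 792 and 2168 (siAATF), or 24.1, 4.83 and 9.47 CPM against 84.2, 160 and 120 CPM. The groups did not overlap, and siControl replicate 1 was again the highest of its group. The mean rose from 12.8 ± 10.04 to 121 ± 37.7 CPM (SD, n = 3 each; fitted 8.83-fold, log2 fold change 3.14, SE 0.53; edgeR, Benjamini-Hochberg adjusted p = 0.000776), and the log2 fold change was 3.92 without siControl replicate 1. Hepatocyte markers rose in the same libraries, and in bulk RNA more cells of a type and more RNA per cell cannot be told apart.

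**Figure D1:**
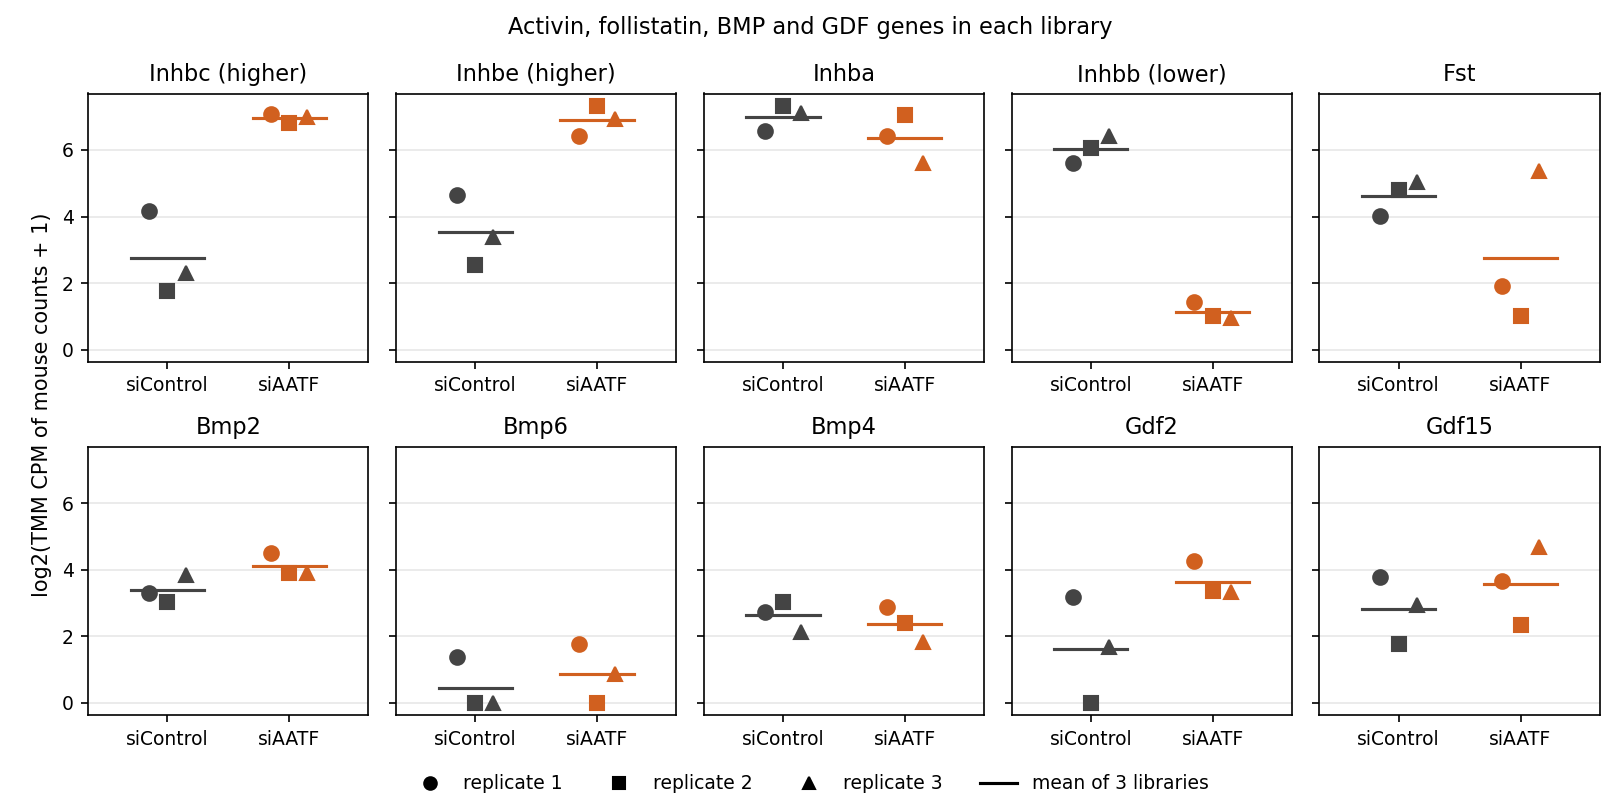
Level of each of the 10 genes in each library, as log2(TMM CPM of mouse counts + 1), with siControl in grey, siAATF in orange, one symbol per replicate number and a bar at the mean of 3 libraries. Inhbc and Inhbe are higher and Inhbb is lower in every siAATF library, and for Fst siAATF replicate 3 stands apart from the other siAATF libraries.

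Inhbb was the member that fell. It encodes the subunit of activin B and lies on chromosome 1 of GRCm39 (ENSMUSG00000037035, 119343195 to 119349978, minus strand). Although the siAATF libraries held many times more mouse counts, only 49, 5 and 17 of them were on Inhbb, against 59, 27 and 153 in siControl. In CPM this was 47.3, 65.1 and 85.2 (siControl, replicates 1 to 3) and 1.69, 1.01 and 0.942 (siAATF, likewise), with no overlap. The mean fell from 65.9 ± 19.0 to 1.21 ± 0.414 CPM (SD, n = 3 each), a fitted 51.9-fold (log2 fold change -5.70, SE 0.46; edgeR's quasi-likelihood test, Benjamini-Hochberg adjusted p = 2.13e-05). The value stayed between -6.05 and -5.45 with any 1 library left out. Scaled to both species together, Inhbb was at 1.62, 0.986 and 2.83 (siControl) and 1.14, 0.413 and 0.481 (siAATF) CPM. On that scale siAATF replicate 1 lay within the siControl range, and the log2 fold change of -1.38 did not pass the test (edgeR, Benjamini-Hochberg adjusted p = 0.0808). All fibroblast, 6 of 8 general endothelial and 5 of 9 macrophage markers were lower in the same libraries after TMM scaling. With all gene counts as the scale, 4 of 10 fibroblast markers were lower and none higher, whereas 4 of 8 endothelial and 4 of 9 macrophage markers were higher and none lower, and none of the 5 neutrophil markers passed in either direction. That scale moves all genes nearly alike, and relative to the median of all genes the list medians lay at -5.41 (fibroblast), -2.71 (endothelial) and -3.97 (macrophage). Ratios of Inhbb to the first and second of these lists are given further on, and the part of macrophages was not tested.

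Inhba, whose product forms activin A, had the most counts of the 10 genes in siControl and did not pass the test. The gene lies on chromosome 13 of GRCm39 (ENSMUSG00000041324, 16186436 to 16206206, plus strand). Counts were 118, 66 and 245 (siControl) and 2433, 651 and 870 (siAATF), or 94.6, 159 and 136 CPM against 83.9, 131 and 48.2 CPM. The groups overlapped, with siAATF replicate 2 close to siControl replicate 3. The means were 130 ± 32.8 and 87.7 ± 41.6 CPM (SD, n = 3 each), a log2 fold change of -0.56 (SE 0.45, 95% interval -1.44 to 0.31; edgeR, Benjamini-Hochberg adjusted p = 0.352).

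The share of each gene among the 4 beta subunit genes, as counts per kb of exon length within a library, does not depend on scaling between libraries. It was computed after the values above were seen. Inhba took 37.5%, 58.7% and 47.2% (siControl, replicates 1 to 3) and 12.9%, 18.6% and 7.74% (siAATF, likewise). Inhbb took 28.1%, 36.1% and 44.3% (siControl) and 0.391%, 0.214% and 0.227% (siAATF). Inhbc took 22.9%, 3.06% and 4.63% (siControl) and 71.1%, 54.1% and 68.8% (siAATF). Inhbe took 11.4%, 2.14% and 3.93% (siControl) and 15.6%, 27.2% and 23.2% (siAATF). Per kb, Inhba and Inhbb together were the larger part of this group in every siControl library, and Inhbc alone was in every siAATF library. For none of the 4 genes did the groups overlap (two-sided exact permutation test, each p = 0.1, which is the lowest possible with 3 against 3 libraries), and the 4 shares sum to 100% and are not independent. The exon length of Inhbe in the deposited table, 5319 of 5555 bases of gene body, covers nearly the whole gene. Without division by length the mean share of Inhbe was higher by 29.6 percentage points in place of 16.1, and that of Inhbc by 34.1 in place of 54.5. Inhbc then took 44.2%, 27.6% and 42.4% in siAATF, beside 27.7%, 39.6% and 40.9% for Inhbe and 27.6%, 32.6% and 16.4% for Inhba, so that it was the larger part of no library and the lowest of these 3 genes in replicate 2. Inhba and Inhbb together remained the larger part in every siControl library, and the groups still did not overlap for any of the 4 genes.

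**Figure D2:**
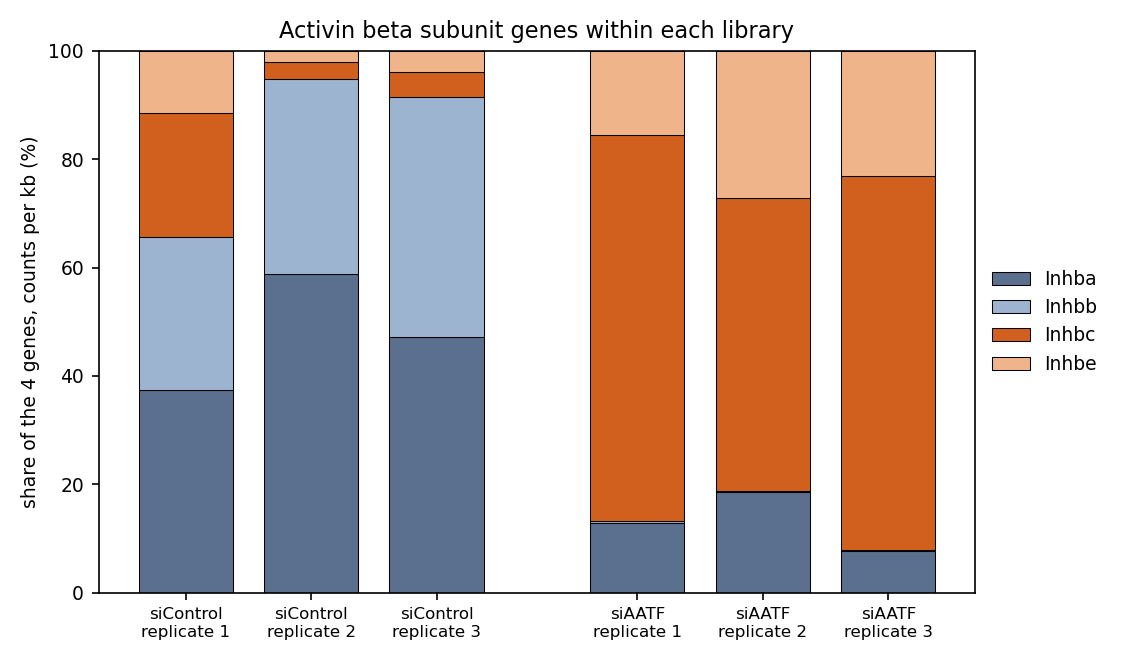
Stacked bars of the share (%) that each of the 4 activin beta subunit genes takes of their summed counts per kb in each library. In siControl the bars are mostly Inhba (37.5% to 58.7%) and Inhbb (28.1% to 44.3%), and in siAATF mostly Inhbc (54.1% to 71.1%) with Inhbe (15.6% to 27.2%).

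Follistatin was uneven among the siAATF libraries. Fst (ENSMUSG00000021765, chromosome 13 of GRCm39, 114588826 to 114595487, minus strand) had 19, 11 and 57 counts (siControl) and 81, 5 and 723 (siAATF). Its level was 15.2, 26.5 and 31.8 CPM (siControl, replicates 1 to 3) and 2.79, 1.01 and 40.1 CPM (siAATF, likewise). Replicates 1 and 2 of siAATF lay below all siControl libraries and replicate 3 above all of them. The means were 24.5 ± 8.44 and 14.6 ± 22.05 CPM (SD, n = 3 each), with a log2 fold change of -0.72 (SE 0.95; edgeR, Benjamini-Hochberg adjusted p = 0.583). Without siAATF replicate 3 it was -3.48 (edgeR, Benjamini-Hochberg adjusted p = 1.86e-05). Over all alternatives the adjusted p ran from 1.87e-06, which belongs to the opposite direction (3.51, with all gene counts as the scale), to 0.898. It also passed with all 6 libraries under the replicate block (-1.75) and with the mouse total as the scale (-2.59), so that the lack of a call depended on this library, on the model and on the scaling. Replicate 3 also had the highest neutrophil marker sum of the siAATF group (127 CPM against 2.17 and 1.81), and the part of this in the result was not tested. Gm47040, an antisense gene that overlaps Fst, had 24, 0 and 116 counts in siAATF and 0 in siControl. Whether the counting used strand is not stated, so that reads of the pair may not be separable.

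None of the 4 genes ascribed to stromal cells passed the test. Bmp2 (ENSMUSG00000027358, chromosome 2 of GRCm39, 133394079 to 133404805, plus strand), an endothelial signal for hepcidin, had 11, 3 and 24 counts (siControl) and 630, 70 and 251 (siAATF). In CPM these were 8.82, 7.24 and 13.4 against 21.7, 14.1 and 13.9. The siAATF libraries lay above those of siControl, though replicate 3 only just, and the log2 fold change was 0.68 (SE 0.42; edgeR, Benjamini-Hochberg adjusted p = 0.235). Bmp6, the other endothelial signal for hepcidin (ENSMUSG00000039004, chromosome 13 of GRCm39, 38529083 to 38684278, plus strand), was the least abundant member in siControl, with 2, 0 and 0 counts there and 69, 0 and 15 in siAATF. At 1.604, 0 and 0 CPM against 2.38, 0 and 0.831 CPM, a difference was not detectable at this depth (log2 fold change 0.94, SE 1.55; edgeR, Benjamini-Hochberg adjusted p = 0.671). Its locus overlaps Txndc5 on the opposite strand, which had 39 to 154 counts in siControl and 763 to 6995 in siAATF, and reads of this pair may likewise not be separable.

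Bmp4 (ENSMUSG00000021835, chromosome 14 of GRCm39, 46620977 to 46628126, minus strand), a mesenchymal BMP, had 7, 3 and 6 counts (siControl) and 184, 21 and 46 (siAATF). Its levels of 5.61, 7.24 and 3.34 CPM against 6.34, 4.23 and 2.55 CPM overlapped, with a log2 fold change of -0.19 (SE 0.63, 95% interval -1.42 to 1.04; edgeR, Benjamini-Hochberg adjusted p = 0.849). Gdf2 encodes BMP9, a circulating ligand for the endothelial receptor Acvrl1 (ENSMUSG00000072625, chromosome 14 of GRCm39, 33662996 to 33669155, plus strand). It had 10, 0 and 4 counts (siControl) and 523, 46 and 162 (siAATF), or 8.02, 0 and 2.23 CPM against 18.0, 9.27 and 8.98 CPM. All siAATF libraries were higher, by a narrow margin over siControl replicate 1, and the log2 fold change of 1.605 (SE 0.67) missed the threshold (edgeR, Benjamini-Hochberg adjusted p = 0.0866). Without siControl replicate 1 it was 2.83 and passed (edgeR, Benjamini-Hochberg adjusted p = 0.0264), as it did at 1.88 without siAATF replicate 3 (adjusted p = 0.0252), with 2.84e-11 to 0.937 over all alternatives.

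Gdf15, a cytokine induced by cell stress that acts through a receptor in the hindbrain, was spread widely in both groups (ENSMUSG00000038508, chromosome 8 of GRCm39, 71082043 to 71085106, minus strand). Its counts of 16, 1 and 12 (siControl) and 342, 20 and 441 (siAATF) corresponded to 12.8, 2.41 and 6.69 CPM against 11.8, 4.03 and 24.4 CPM. The groups overlapped, with replicate 2 the lowest in each. The log2 fold change was 0.75 (SE 0.66, 95% interval -0.53 to 2.04; edgeR, Benjamini-Hochberg adjusted p = 0.394), with 0.10 without siAATF replicate 3 and 1.33 without siControl replicate 1.

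Of the 10 genes, 3 had an adjusted p under 0.05, against 32.0% of the 18018 mouse genes tested. Higher were 2 of the 10 (17.6% of all genes) and lower 1 of the 10 (14.4% of all genes), so that the number of calls was near that of the table as a whole. By the study's own thresholds, unadjusted p under 0.05 with a log2 fold of 2 or more in size, 2 were also higher and 1 lower (26.7% of all genes passed). The groups did not overlap for 5 of the 10 genes, 4 higher and 1 lower, against 52.7% of all genes (34.5% higher and 18.1% lower). By source, both hepatocyte genes were called higher (median log2 fold change 3.51), none of the 4 stromal genes was called (median 0.81), and 1 of the 4 genes with several sources was called lower (median -0.64), beside a median of 0.50 over all genes tested.

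The other scalings moved all genes nearly alike, so that a gene hardly changes its place relative to the median of all genes. Each of the 10 members thus kept its side of that median under all 3, with 6 above it and 4 below, which does not test a direction. Scaling by the mouse total alone lowered the median of all genes from 0.50 to -1.30, and scaling by all gene counts, human and mouse, raised it to 4.66. Around 0 itself, Inhbc (2.13 and 8.04), Inhbe (1.30 and 7.22) and Inhbb (-7.45 and -1.38) kept their direction under both, although Inhbb did not pass the test under the second. Inhba, Fst and Bmp4 were lower with the first (-2.44, -2.59 and -1.91) and higher with the second (3.73, 3.51 and 4.13). Bmp2, Bmp6, Gdf2 and Gdf15 had values of -1.06, -0.61, -0.07 and -0.99 with the mouse total and of 4.95, 5.08, 5.82 and 4.94 with all gene counts. Relative to the median of all genes, Inhbc lay at 3.38, 3.43 and 3.38 (TMM, mouse total and all gene counts, in this order), Inhbe at 2.64, 2.60 and 2.56 and Inhbb at -6.20, -6.14 and -6.04. Gdf2 lay at 1.10, 1.23 and 1.16 above it, and Bmp6, Gdf15 and Bmp2 at 0.18 to 0.69. Inhba lay at -1.07, -1.14 and -0.94, Fst at -1.22, -1.29 and -1.15, and Bmp4 at -0.69, -0.61 and -0.53.

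**Figure D3:**
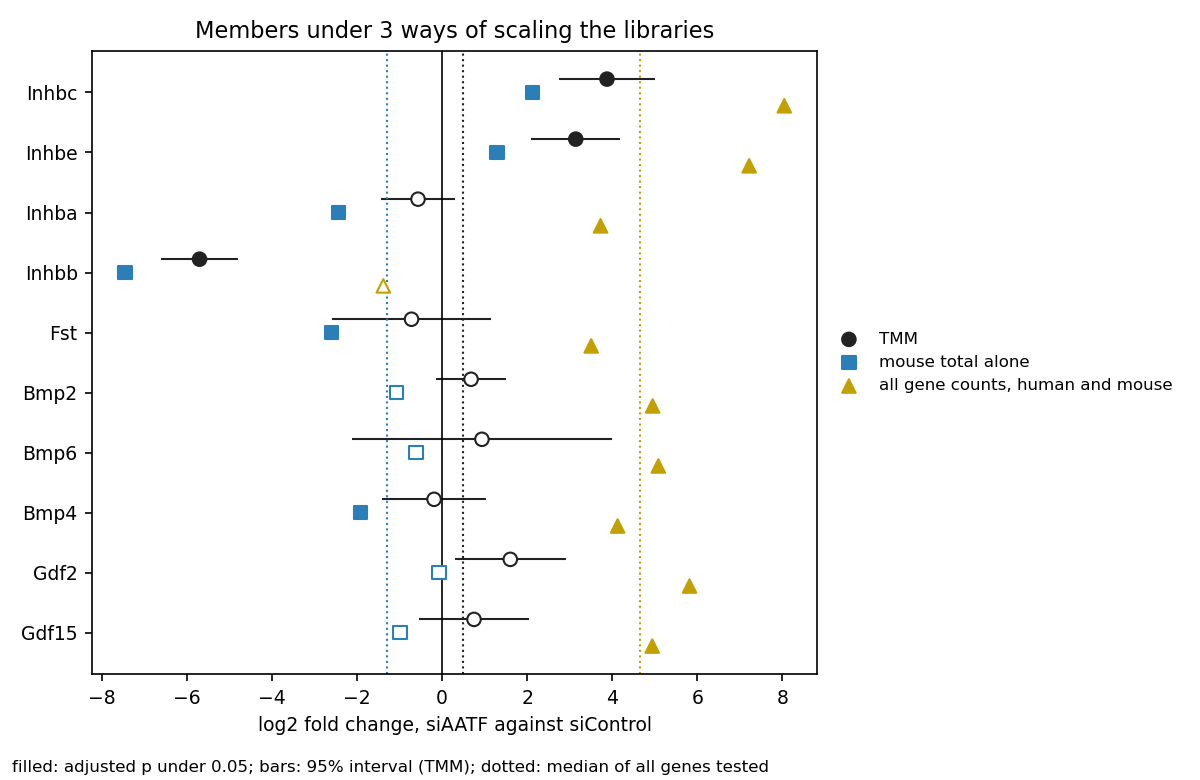
Log2 fold change of each gene, siAATF against siControl, after TMM scaling (circles, bars 95% intervals), scaling by the mouse total alone (squares) and scaling by all gene counts (triangles), filled where the adjusted p was under 0.05. Dotted lines mark the median of all genes tested under each scaling (0.50, -1.30 and 4.66). Each of the 10 genes keeps its side of these medians, since a scaling moves all genes nearly alike.

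Levels of different genes were compared as TMM CPM per kb of exon length. In siControl the order was Inhba (20.4 ± 5.13), Inhbb (15.5 ± 4.46), Fst (8.65 ± 2.98), Inhbc (4.15 ± 4.27), Gdf15 (3.95 ± 2.83), Bmp2 (2.76 ± 0.895), Bmp4 (2.62 ± 0.948), Inhbe (2.40 ± 1.89), Gdf2 (1.14 ± 1.39) and Bmp6 (0.149 ± 0.258) CPM per kb (SD, n = 3). Each gene's range over the 3 libraries overlapped that of the next, so that no neighbours in this order differed beyond their spread. In siAATF the order was Inhbc (66.3 ± 6.31), Inhbe (22.8 ± 7.09), Inhba (13.7 ± 6.51), Gdf15 (7.24 ± 5.56), Fst (5.16 ± 7.78), Bmp2 (4.66 ± 1.25), Gdf2 (4.05 ± 1.72), Bmp4 (2.12 ± 0.921), Bmp6 (0.298 ± 0.336) and Inhbb (0.285 ± 0.0972) CPM per kb (SD, n = 3). Per kb, Inhbc stood clear of Inhbe and Bmp4 clear of Bmp6, and the other neighbours overlapped, Inhbb and Bmp6 at the end among them. The place of Inhbc above Inhbe rested on the long exon length of Inhbe, since in CPM not divided by length the siAATF means were 123 and 121 with overlapping ranges. In siControl the level of Inhbc was 9.06 CPM per kb in replicate 1, against 1.30 and 2.10 in replicates 2 and 3, so that its place there rested on 1 library.

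Ratios within a library compare a gene with another gene, or with the summed level of a marker list, and do not change with the scaling between libraries. They were taken as log2 of the ratio with 0.5 added to a count, 14 ratios were computed, and the smallest possible p was 0.1 (two-sided exact permutation test), or 0.175 after adjustment over the 14. Set against hepatocyte markers, Inhbc was at -10.1, -11.1 and -11.1 (siControl) and -9.74, -8.96 and -10.4 (siAATF). Inhbe was at -9.58, -10.4 and -9.86 (siControl) and -10.4, -8.43 and -10.5 (siAATF). Both overlapped, with differences of 1.05 for Inhbc (p = 0.2, or 0.28 adjusted, exact permutation test) and 0.16 for Inhbe (p = 1, exact permutation test), far below their rises in CPM. The sum leaned on Trf, the marker that was not called, more in siControl than in siAATF. Trf was at 9315, 4447 and 5226 CPM of sums of 18679, 7895 and 9033 CPM in siControl. In siAATF it was at 17464, 7168 and 44974 CPM of 115158, 55206 and 169541 CPM. With the median of the markers in place of their sum the differences were -0.38 and -1.27. The ratio of Inhbe to Inhbc was 0.50, 0.74 and 1.22 (siControl) and -0.67, 0.52 and -0.05 (siAATF), overlapping as well.

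Inhbb was compared with the stromal markers that were lower in the same libraries, in ratios chosen after its values were seen. Against general endothelial markers it was at -2.97, -3.04 and -2.69 (siControl) and -6.65, -6.01 and -5.65 (siAATF), lower in all siAATF libraries by 3.21 on average (p = 0.1, exact permutation test). Against activated fibroblast markers it was at -7.47, -7.48 and -7.15 (siControl) and -6.60, -5.95 and -6.37 (siAATF), higher in all siAATF libraries by 1.06 (p = 0.1, exact permutation test). With the median of the markers in place of their sum these differences were -2.59, still without overlap, and 0.28, with the groups overlapping. Inhba, in the same manner, was 6.13 higher against fibroblast markers in siAATF (-6.47, -6.21 and -6.48 against -0.98, 0.94 and -0.73), or 5.35 with the median of the markers and 5.53 without siAATF replicate 2. The log2 fold change of Inhba itself was -0.56, so that this ratio moved with the marker sum.

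Bmp2, Bmp4 and Gdf2 also stood higher against the summed markers of the cells they are ascribed to. Bmp2 against endothelial markers was at -5.34, -6.01 and -5.34 (siControl) and -2.98, -2.33 and -1.80 (siAATF), a difference of 3.19. Against sinusoidal markers, a ratio that was not planned beforehand, the difference was 1.49. Bmp4 against fibroblast markers differed by 6.33 and Gdf2 against stellate markers by 2.16, with no overlap between the groups for any of these (p = 0.1 each, exact permutation test). Bmp6 against endothelial markers overlapped (1.95, p = 0.3, or 0.382 adjusted, exact permutation test). With the median of the markers Bmp2 was higher by 3.81 against endothelial and by 0.52 against sinusoidal markers, where the groups then overlapped, while Bmp4 (5.55) and Gdf2 (2.20) stayed without overlap. Gdf2 against stellate markers differed by 1.498 without siControl replicate 2, which had 0 counts, and by 2.93 without siControl replicate 1. Between members, Gdf2 to Bmp4 was at 0.49, -2.81 and -0.53 (siControl) and 1.505, 1.11 and 1.81 (siAATF), higher by 2.43 without overlap, while Fst to Inhba (-1.61) and Bmp6 to Bmp2 (-1.24) overlapped. Gdf2 to Bmp4 was 1.497 without siControl replicate 2 and 3.14 without siControl replicate 1. Fst to Inhba ran from -3.48 without siAATF replicate 3 to -0.17 without siAATF replicate 2, and Bmp6 to Bmp2 from -2.28 without siControl replicate 3 to -0.06 without siAATF replicate 2.

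**Figure D4:**
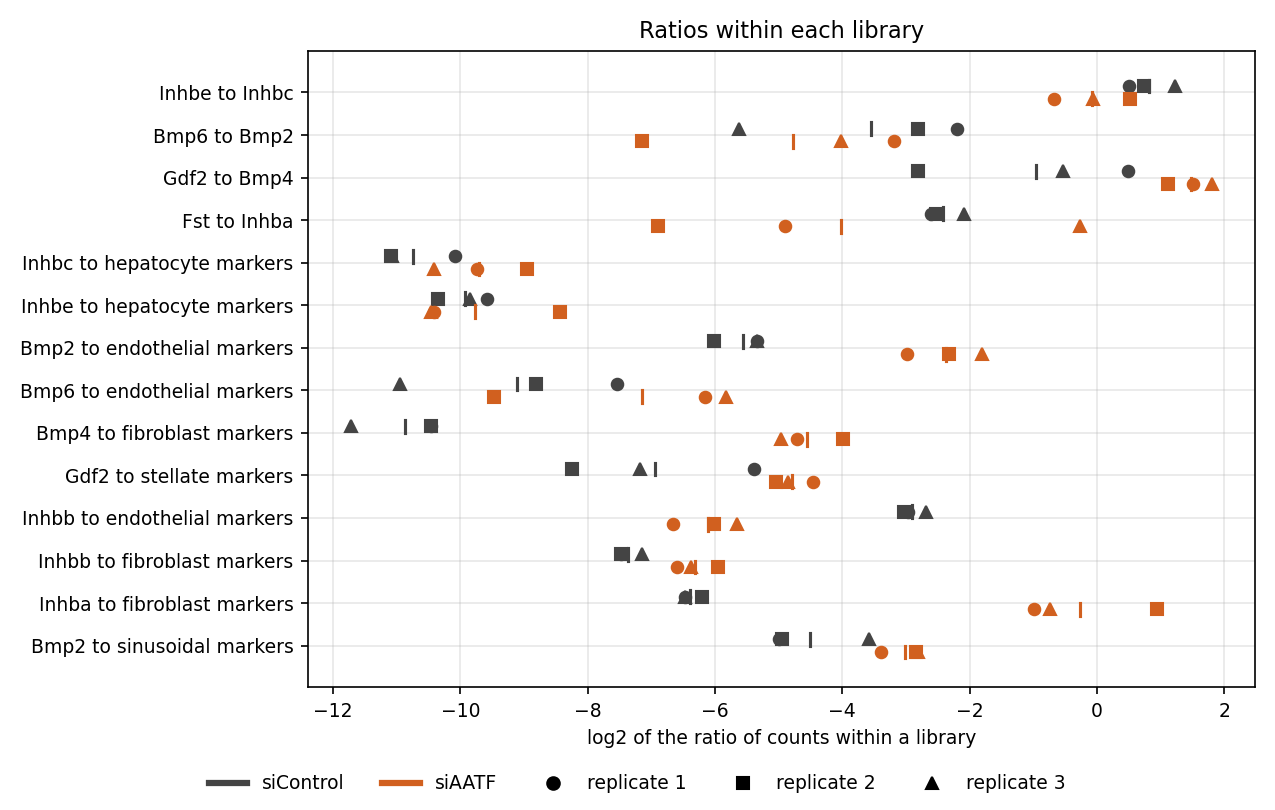
Each of the 14 ratios in each library on a log2 scale, siControl in grey and siAATF in orange, one symbol per replicate number and a tick at the mean of 3 libraries. Inhbc and Inhbe overlap between the groups against hepatocyte markers, whereas Bmp2, Bmp4, Gdf2 and Inhba lie higher and Inhbb lies lower against endothelial but higher against fibroblast markers.

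For the 3 members with the most counts, the genes with the most similar profile over the 6 libraries were sought among 9465 genes with a mean of at least 50 counts, by Pearson's r of log2(TMM CPM + 1), as a description. Inhbc was closest to Tmt1b, Tmprss6 and Pm20d1 (r = 0.9988, 0.9987 and 0.9986), of which Tmprss6 encodes the hepatocyte protease that cleaves hemojuvelin. Inhbe was closest to Mia2, Zfyve9 and Nat9 (r = 0.9985, 0.9980 and 0.9975). With 2 groups far apart such values are common, and 2034 genes reached r over 0.9 with Inhbc and 1782 with Inhbe. Inhba was closest to Klf7 (0.9803), Lmo4 (0.9801) and Bckdk (0.9768), and only 26 genes reached r over 0.9 with it.

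The other genes of the pathway were taken from 6 lists with 68 genes, of which 52 were tested. Among these, an adjusted p under 0.05 was found for 7 higher and 11 lower genes, beside 17.6% higher and 14.4% lower (32.0% in all) over the 18018 genes tested, so that the number of calls was again near that of the table. The median log2 fold change was -0.30, with genes at 0 in a group at their fitted values, beside 0.50 for all genes. All 11 lower genes and all 7 higher ones lay on the same side of the median of all genes under both other scalings. This follows from scalings that move all genes nearly alike, and it does not test a direction. Around 0 itself, 5 of the 7 higher genes stayed higher with the mouse total alone and 3 of the 11 lower genes stayed lower with all gene counts. Among the other ligands, 3 of 11 tested were lower and none higher. The convertases cut ligand precursors into their active form, and 2 of 4 were higher. Pcsk5, at 8.02, 2.41 and 3.90 CPM (siControl) and 12.3, 24.6 and 26.9 CPM (siAATF), was higher without overlap by a fitted 4.09-fold (log2 fold change 2.03, SE 0.52; edgeR, Benjamini-Hochberg adjusted p = 0.00964), and lost the call without siControl replicate 3 (edgeR, Benjamini-Hochberg adjusted p = 0.0785) and, at 0.18, with the mouse total as the scale (adjusted p = 0.805). Furin had 148, 89.3 and 111 CPM against 205, 167 and 227 CPM, all siAATF libraries higher, but a log2 fold change of 0.78 did not pass (edgeR, Benjamini-Hochberg adjusted p = 0.163).

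Of 13 receptors tested 2 were higher and 4 lower, beside 17.6% and 14.4% of all genes. Acvr2b, a type II receptor of activins, was at 0, 2.41 and 1.11 CPM (siControl) and 7.89, 15.7 and 11.7 CPM (siAATF) (log2 fold change 3.70, SE 0.79; edgeR, Benjamini-Hochberg adjusted p = 0.00337). The siControl values rest on 0, 1 and 2 counts, each under the limit of 3. The gene thus passed the count filters through its siAATF libraries alone, and its fitted value and p are given as a description. The pooled ratio of 518 to 3 counts was 11.5-fold after TMM scaling (95% interval 3.90 to 55.8, exact, counting error only). Hjv, named after its values were seen, encodes hemojuvelin, the BMP co-receptor of hepatocytes, and rose from 10.4, 4.83 and 8.91 to 120, 63.5 and 105 CPM (log2 fold change 3.48; edgeR, Benjamini-Hochberg adjusted p = 0.000153). Both genes were higher in every siAATF library, and without siControl replicate 1 Acvr2b was at 3.02. With the mouse total as the scale it did not pass, at 1.82 (edgeR, Benjamini-Hochberg adjusted p = 0.121). Acvrl1, the endothelial type I receptor of Gdf2, fell from 32.9, 53.1 and 29.5 to 3.45, 3.02 and 1.55 CPM, a fitted 14.0-fold (log2 fold change -3.80, SE 0.45; edgeR, Benjamini-Hochberg adjusted p = 9.06e-05). Its co-receptor Eng, also named after its values were seen, fell from 162 ± 8.72 to 43.9 ± 19.0 CPM (SD, n = 3 each; log2 fold change -1.88; edgeR, Benjamini-Hochberg adjusted p = 0.00444). Both receptor genes were lower together with the endothelial markers, whose part in these values was not tested. With all gene counts as the scale Acvrl1 was at 0.59 and Eng at 2.49.

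Of the 6 SMAD genes, Smad3, which carries activin signals, was lower (18.4, 12.1 and 25.6 against 8.34, 6.45 and 8.03 CPM; log2 fold change -1.36, SE 0.40; edgeR, Benjamini-Hochberg adjusted p = 0.0203), and none was higher, beside 14.4% lower and 17.6% higher among all genes. It lost the call without siControl replicate 1 or 3 (edgeR, Benjamini-Hochberg adjusted p = 0.0536 and 0.180), and reversed to 2.87 with all gene counts as the scale. Among 9 antagonists tested, 2 were lower and none higher, beside the same shares of all genes. Nbl1, which binds BMPs, fell from 20.9, 16.9 and 26.7 to 1.41, 1.61 and 3.93 CPM (log2 fold change -3.21, SE 0.51; edgeR, Benjamini-Hochberg adjusted p = 0.000494), with 0.97 on the scale of all gene counts. Fstl3, the relative of follistatin, was singled out after its values were seen. It had 7, 1 and 11 counts in siControl and 0 in each siAATF library, at least 16.2-fold lower by mean CPM against the limit of 3 counts per library.

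Of 9 target genes of BMP signaling 3 were higher and 1 lower, beside 17.6% and 14.4% of all genes. Hamp was at 334, 82.0 and 57.9 CPM (siControl) and 375, 1564 and 2814 CPM (siAATF) (log2 fold change 3.32, SE 0.87; edgeR, Benjamini-Hochberg adjusted p = 0.0112). The groups did not overlap, but siAATF replicate 1 was close to siControl replicate 1. Without siControl replicate 1 the log2 fold change was 4.51. Without siControl replicate 2 or 3 it was 3.01 and 2.90, and the call was lost (edgeR, Benjamini-Hochberg adjusted p = 0.0680 and 0.0748). The call was also lost with the mouse total as the scale, at 1.44 (adjusted p = 0.113). Hamp2, its paralog, had 0 counts in siControl and 224, 16 and 185 in siAATF, at least 1.87-fold higher by mean CPM against the limit of 3 counts per library. Only reads with a single place were kept, so that reads matching both paralogs would be missing from both counts. Both are hepatocyte genes. Id1, a target in most cells, fell from 22.5, 29.0 and 16.7 to 8.07, 4.63 and 8.48 CPM without overlap (log2 fold change -1.61, SE 0.41; edgeR, Benjamini-Hochberg adjusted p = 0.0101), and reversed to 2.73 with all gene counts as the scale. Its relative Id2, named after its values were seen, was higher, at 120, 57.9 and 93.6 against 206, 242 and 222 CPM (log2 fold change 1.29, SE 0.42; edgeR, Benjamini-Hochberg adjusted p = 0.0329). It lost the call without siControl replicate 2 or 3 (adjusted p = 0.128 and 0.139) and reversed to -0.53 with the mouse total as the scale.

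**Figure D5:**
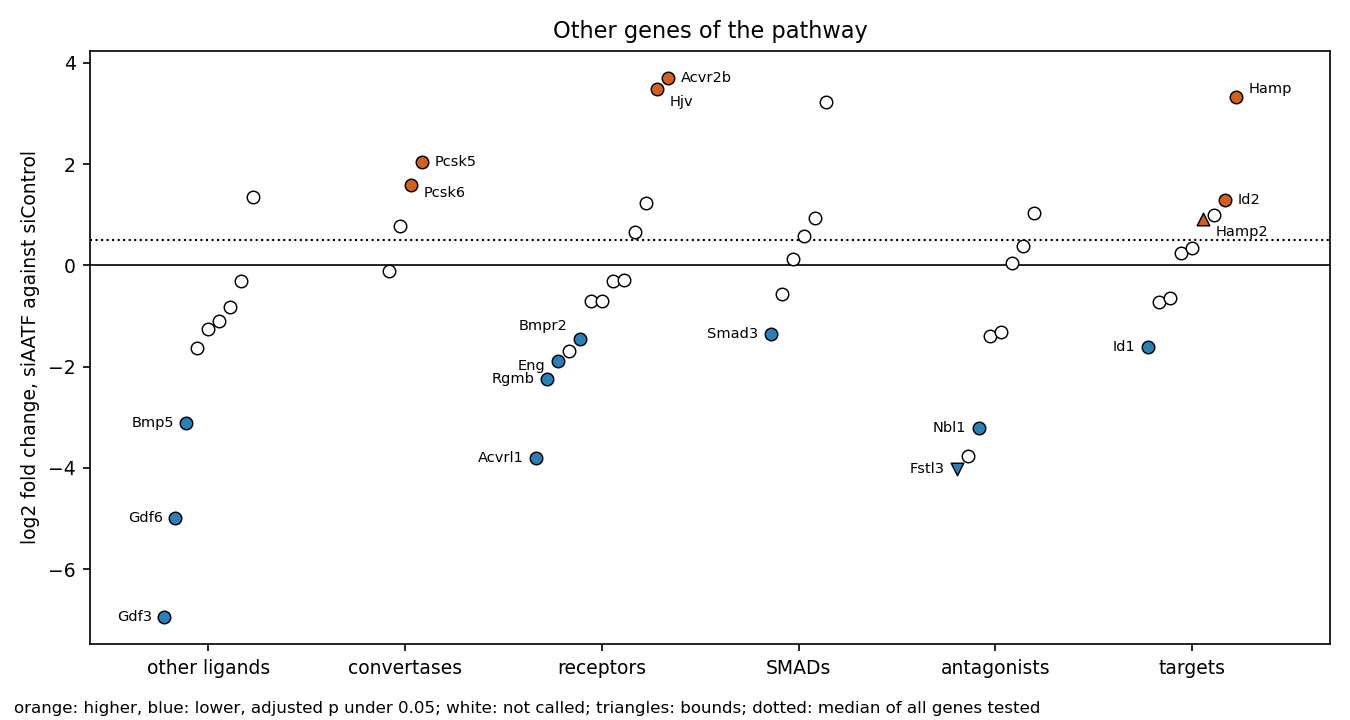
Log2 fold change after TMM scaling, siAATF against siControl, for the tested genes of 6 pathway lists, orange where called higher, blue where called lower and white where not called, with the median of all genes (0.50) dotted. Triangles are bounds for genes at 0 in all libraries of a group, and 3 uncalled genes at 0 in siControl whose bound is uninformative are not drawn. The calls of each list are labelled, with Hjv and Acvr2b at the top of the receptors and Acvrl1 at the bottom.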

How the data were processed

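Liver RNA of 6 libraries, 3 siControl and 3 siAATF, was made into SMART-Seq libraries and sequenced by the authors. They trimmed reads with Cutadapt, aligned them with STAR 2.7.11 to the joined human and mouse genomes, kept only reads with a single place in 1 species, and counted these with featureCounts 2.0.1. The deposited values are raw counts per gene, neither normalized nor filtered, in 1 table per species. Whether strand was used in counting is not stated.

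Mouse identifiers were named from GENCODE release 39 (56323 of 56884), and coordinates are those of the table (GRCm39). The 18018 genes with 10 or more counts in total were tested with edgeR 4.0.16 (quasi-likelihood, TMM, group as the only term, R 4.3.3), with Benjamini-Hochberg adjustment over all of them, and called at an adjusted p under 0.05. Intervals of 95% assume a normal error. The fit was also run on simulated counts with a single dispersion and as many rises as falls. That setting lacks the unequal composition of these libraries, so that it does not test the fit for them. From each pathway list the called gene with the largest rise and the largest fall (mean of at least 10 counts) was named, with Hamp, Id1, Furin, Aatf and cell type markers. Promoter sequences are from RefSeq (GRCm38.p6). The genes, lists and tests were chosen with earlier results of these data known. Alternatives were DESeq2 1.42.0 (the authors' tool), limma-voom 3.58.1, other scalings and filters, the replicate block, thinning and leaving out each library. Plots used matplotlib 3.10.9.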

Additional observations from a re-analysis of the deposited data

How the results depend on the processing

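Inhbc and Inhbe stayed higher with an adjusted p under 0.05 under all 15 alternatives run for each, and Inhbb stayed lower under its 15, with the call lost under 1. Of 145 fold changes of members over the alternatives, 122 kept their direction and side of the threshold. Scaling by all gene counts gave log2 fold changes of 3.73 for Inhba, 3.51 for Fst and 4.13 for Bmp4 (reversed), 4.95 for Bmp2, 5.08 for Bmp6, 5.82 for Gdf2 and 4.94 for Gdf15 (now past the threshold) and -1.38 for Inhbb, with 9 members higher and 0 lower, and 44 pathway genes higher and 2 lower. Scaling by the mouse total alone gave -2.44 for Inhba, -2.59 for Fst and -1.91 for Bmp4 (now past the threshold) and -1.06 for Bmp2, -0.61 for Bmp6, -0.075 for Gdf2 and -0.99 for Gdf15 (reversed), with 4 members lower, and 2 pathway genes higher and 28 lower. The higher share of all calls was 54.998%, against 9.33% with the mouse total alone, 99.2% with all gene counts, 45.0% with limma-voom and 43.99% after thinning. The median of all genes shifted by -1.80 with the mouse total alone, 4.16 with all gene counts, 0.66 with no filter, -0.59 with limma-voom, -0.79 after thinning, -0.29 with filterByExpr, -0.21 with DESeq2 and -0.39 where each library had to reach 10 counts. Under that filter Inhba was the only member tested, so that 0 were higher and 0 lower, with 3 pathway genes higher and 4 lower, since fewer genes were tested. Thinning all libraries to the smallest mouse total left 6 members tested, and 2 pathway genes higher and 6 lower. No filter brought Gdf2 to 1.73 and past the threshold. DESeq2 gave no adjusted p for Fst.

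A pairing of the libraries by replicate number was not seen, with correlations of deviations of 0.145, 0.212 and -0.0229 between same-numbered libraries. Replicate 1 of siControl correlated best with siAATF replicate 3 (0.176), and replicate 3 of siControl with siAATF replicate 2 (0.0266). With 3 libraries per group and few mouse counts in siControl, such values cannot exclude a pairing. With the replicate number as a block, Fst was at -1.75 and Gdf2 at 1.76, both past the threshold, 2 members were lower, and 6766 genes of the table were called in place of 5762. The block ended no call of a member.

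With 1 library left out at a time, log2 fold changes ranged from -3.48 to -0.17 for Fst, -0.55 to 0.19 for Bmp4 (0.19 without siAATF replicate 3), -0.23 to 6.66 for Bmp6 (-0.23 without siAATF replicate 1) and 1.19 to 2.83 for Gdf2, and for Gdf15 from 0.10 (without siAATF replicate 3) to 1.33 (without siControl replicate 1). Members lower numbered 1 to 2, and pathway genes 3 to 8 higher and 7 to 12 lower, both lowest without siControl replicate 3 (4 higher without siControl replicate 2). With the median of the markers in place of their sum, the ratio to hepatocyte markers reversed to -0.38 for Inhbc and -1.27 for Inhbe, and that of Inhbe ranged from -0.51 to 0.50 with 1 library left out (-0.05 without siControl replicate 2, -0.51 without siAATF replicate 2). Adding 0.1 to counts in place of 0.5 gave 3.16 for Gdf2 to Bmp4 and -0.48 for Bmp6 to Bmp2, and Bmp6 to endothelial markers ranged from 1.03 (without siControl replicate 3) to 3.11 (without siAATF replicate 2). In shares, counts not divided by length moved Inhbc to 34.1 and Inhbe to 29.6 percentage points. The causes were not tested. Depth limits the siControl values, with at most 10 counts in every siControl library for Bmp6, Bmp4 and Gdf2 and in at least 1 of them for Inhbc, Inhbe, Gdf15 and Bmp2.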
